A study of Mus musculus with 6 samples.

Results

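Angiopoietins and angiopoietin-like proteins were followed in cultured smooth muscle cells of the mouse aorta with and without LRRC8A, the obligatory subunit of channels that let anions out of swollen cells. The genes were chosen by name with the differences between the genotypes already known, so the differences given for them describe these libraries and carry no test. Of the 6 genes listed (Angpt1, Angpt2, Angpt4, Angptl2, Angptl4 and Angptl7), 5 were measured among the 12389 genes of the per-library table, and Angpt1 was not analysed here. The cells were explanted from thoracic aortae, kept in serum-containing medium at passage 6 or below and left untreated. The 3 WT libraries came from wild-type mice and the 3 KO libraries from mice with a smooth muscle-specific loss of LRRC8A. The submitters called the libraries of a group independent biological replicates. The mouse strain, sex and age and the Cre driver were not given in the sources used here, and since the genotype tag says wild type throughout, the titles set the groups.

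Angiopoietins are secreted ligands of Tie2 (gene Tek), a receptor tyrosine kinase of endothelial cells. ANGPT1, made by mural cells, activates the receptor and steadies the vessel wall, whereas ANGPT2 opposes that signal in many settings and loosens contacts between endothelial and mural cells. Most angiopoietin-like proteins share the coiled-coil and fibrinogen-like architecture, but they do not act through Tie2. ANGPTL4 inhibits lipoprotein lipase, ANGPTL2 is a proinflammatory ligand of integrins, and ANGPTL7 is best known from the cornea and the outflow tissue of the eye.

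Values are scaled reads, that is, estimated read counts that the authors divided by a factor for each library, at an estimated depth of 31.0 to 47.9 M reads. Differences are KO over WT on the scale log2(value + 2), which understates the change of genes with few reads. Lrrc8a, the targeted gene, measured 2578, 2194 and 1221 scaled reads in the WT libraries, by replicate number, and 868, 672 and 506 in the KO libraries, so the KO group kept 34.2% of the WT mean. In limma the adjusted p of 0 of 12363 genes tested (0.00%) fell under 0.05, while 447 genes (3.62%) had an unadjusted p under 0.05, and limma-voom also gave 0, with 368 unadjusted. Even Lrrc8a, with a log2 difference of -1.51 (SE 0.34), did not pass (limma adjusted p = 0.999). The authors' deposited table gave it a false discovery rate of 0.0196. A gene that did not pass in limma is therefore not shown to be unchanged. The libraries numbered 3 stood apart in their smooth muscle markers: the 7 measured of 9 listed summed to 16629, 25353 and 205292 scaled reads in the WT libraries, by replicate number, and to 31567, 32575 and 106114 in the KO libraries, most of it from Acta2 and Tagln. Myh11, a late contractile marker, had 90.1, 152 and 1656 scaled reads in WT and 41.7, 20.8 and 96.8 in KO, so the genotypes overlapped. In such bulk samples, fewer cells of a type and less RNA per cell cannot be told apart.

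Of the 6 family genes measured, Angptl1 included, 4 were transcribed from inside another gene on the opposite strand. In GRCm38, with gene models of GENCODE M21, Angpt2 (ENSMUSG00000031465, chromosome 8, 18690263 to 18741562, minus strand) lay within Mcph1, and Angptl7 (ENSMUSG00000028989, chromosome 4, 148495183 to 148500460, minus strand) lay within Mtor. Angptl2 (ENSMUSG00000004105, chromosome 2, 33216069 to 33247717, plus strand) lay within Ralgps1, and Angptl1 (ENSMUSG00000033544, chromosome 1, 156838562 to 156861078, plus strand) within Ralgps2. These 4 pairs shared 0 exon bases, although 465 exon bases of Angptl1 also belonged to the opposite-strand model Gm37802. Angptl4 (ENSMUSG00000002289, chromosome 17, 33773750 to 33781830, minus strand) and Angpt4 (ENSMUSG00000027460, chromosome 2, 151911210 to 151945337, plus strand) overlapped no other gene model. Whether strand was used in counting was not given in the sources used here, so reads from the introns of a host gene on the other strand could not be told apart from reads of the nested gene. The host genes had smaller differences than the genes nested in them: Mcph1 had a log2 difference of 0.24 (SE 0.37), Mtor -0.33 (SE 0.22), Ralgps1 -0.06 (SE 0.45) and Ralgps2 0.88 (SE 0.85). None of the 4 hosts passed in limma, each at an adjusted p of 0.999. No other gene passed either, so this result does not set the hosts apart from the nested genes.

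Angpt2, the ligand that opposes Tie2 activation in many settings, was higher in every KO library than in any WT library. It measured 1184, 1863 and 2245 scaled reads in the WT libraries, by replicate number, and 6842, 3452 and 11788 in the KO libraries. Group means were 1764 ± 537 (WT) and 7361 ± 4192 (KO; SD, n = 3 each), a 4.17-fold ratio of means. Within same-numbered pairs the KO library held 5.78, 1.85 and 5.25 times the WT value, so the second pair showed the least difference. The log2 difference was 1.94 (SE 0.47), the 62nd highest of the 12363 genes tested.

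Angpt4, the other measured Tie2 ligand, had the opposite order, with every KO library below every WT library. It measured 896, 664 and 625 scaled reads in the WT libraries, by replicate number, and 213, 98.2 and 482 in the KO libraries. Group means were 728 ± 147 (WT) and 264 ± 197 (KO; SD, n = 3 each), and the log2 difference was -1.72 (SE 0.55). The gap was narrow in the third pair, where WT exceeded KO 1.30-fold, against 4.21-fold and 6.76-fold in the first and second. Without both libraries numbered 3 the log2 difference was -2.40 for Angpt4 and 1.71 for Angpt2.

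The ratio of the 2 ligands does not depend on how libraries are scaled, since both values come from one library. Per kilobase of annotated exon, Angpt2 stood at 0.84, 1.77 and 2.27 times the level of Angpt4 in WT replicates 1 to 3. In KO replicates 1 to 3 it stood at 20.3, 22.2 and 15.5 times that level. Angpt2 thus made up 45.5% to 69.4% of the measured angiopoietin transcripts in WT and 93.9% to 95.7% in KO. The KO ratios had to lie above the WT ratios, since every KO library was higher in Angpt2 and lower in Angpt4. The ratio therefore adds no separate evidence to the values of the 2 genes. The summed level of both ligands was 705 to 876 scaled reads per exonic kilobase in WT and 978 to 3401 in KO, and it was the higher in KO within each pair.

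**Figure D1:**
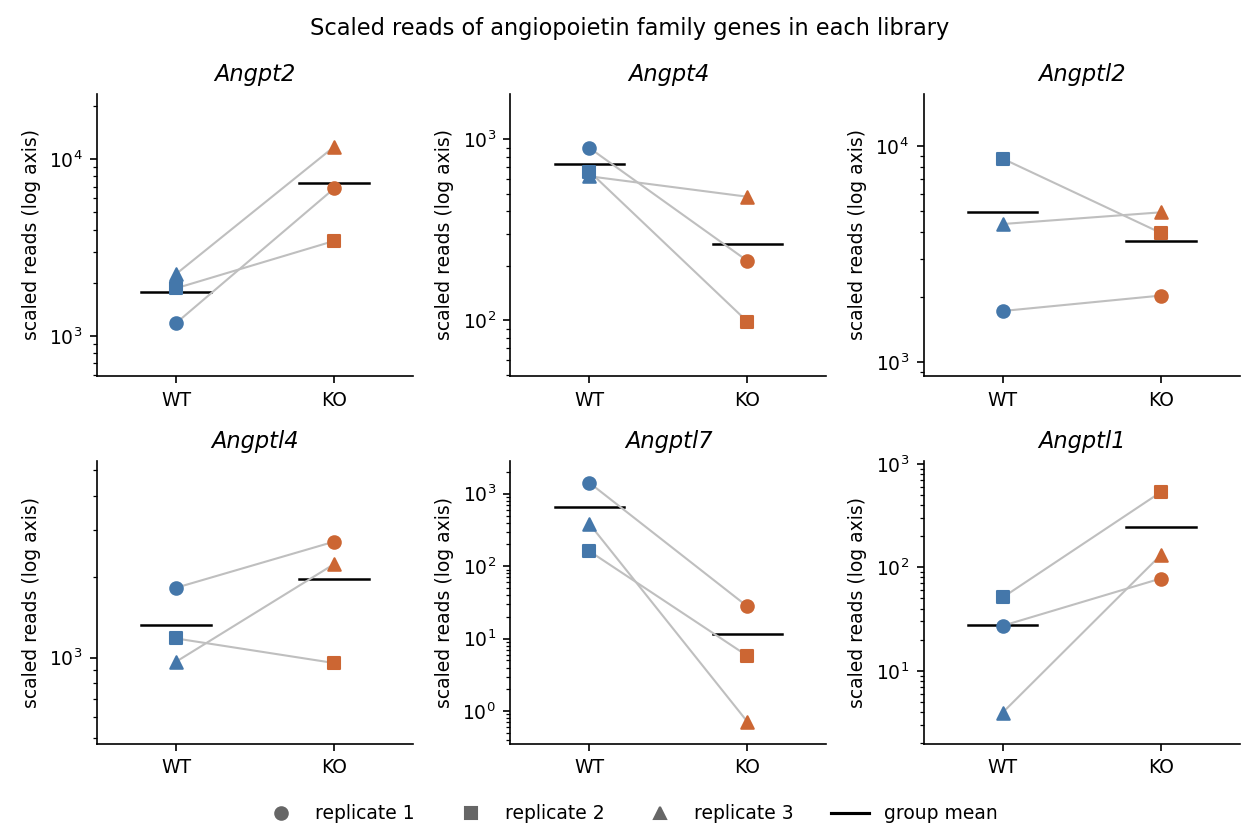
Scaled reads (log axis) of the 5 measured members and of Angptl1 in each WT (blue) and KO (orange) library, with symbols for replicate number, grey lines joining same-numbered libraries and black bars for group means. Angpt2 and Angptl1 lie higher in all KO libraries, Angpt4 and Angptl7 lower, and Angptl2 and Angptl4 overlap between the genotypes.

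Angptl7, a secreted protein linked to extracellular matrix in ocular tissue, showed the lowest log2 difference of all 12363 genes tested, -5.70 (SE 1.23), and the widest in absolute size. It measured 1415, 161 and 384 scaled reads in the WT libraries, by replicate number, and 27.8, 5.78 and 0.712 in the KO libraries. In estimated reads these were 1194, 138 and 485 in WT and 26, 5 and 1 in KO, so the third KO library held a single read. No gene of the per-library table had a maximum below 200.5 estimated reads, a level that Angptl7 reached in WT libraries only. Group means were 653 ± 669 (WT) and 11.4 ± 14.4 (KO; SD, n = 3 each), and no KO library reached the lowest WT library. By pair, WT exceeded KO 50.9-fold (95% exact interval 34.6 to 78.2), 27.9-fold (11.7 to 87.2) and 539-fold (96.3 to 21338), with intervals for counting error only. The last of these ratios rested on 1 KO read and was the least precise, and without both libraries numbered 3 the log2 difference was -4.98.

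The WT cultures themselves differed widely in Angptl7, highest in the first library and lowest in the second. Its residual SD of 1.65 on the log2 scale was at the 95.9th percentile of all genes tested, against the 82.3rd for Angpt2 and the 85.9th for Angpt4. Mtor, which encloses Angptl7, had 1449 to 2189 scaled reads in WT and 1263 to 1535 in KO. In the third KO library Angptl7 had 0.712 and Mtor 1263 scaled reads, and the part of Mtor reads in the Angptl7 values was not tested.

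The promoters of Angpt4 and Angptl7 are shown because these were the members with lower values in every KO library. The 250 bases before each start are given 5′ to 3′ on the gene's strand, from RefSeq in GRCm38.p6, with capitals for matches to the motifs searched.
Angpt4 (chr2:151910957-151911206, plus strand): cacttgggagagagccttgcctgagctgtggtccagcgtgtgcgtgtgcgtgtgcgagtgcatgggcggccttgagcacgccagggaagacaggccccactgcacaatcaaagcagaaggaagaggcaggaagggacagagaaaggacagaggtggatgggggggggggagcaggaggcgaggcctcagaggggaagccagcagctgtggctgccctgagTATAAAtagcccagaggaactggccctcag
Angptl7 (chr4:148500463-148500712, minus strand): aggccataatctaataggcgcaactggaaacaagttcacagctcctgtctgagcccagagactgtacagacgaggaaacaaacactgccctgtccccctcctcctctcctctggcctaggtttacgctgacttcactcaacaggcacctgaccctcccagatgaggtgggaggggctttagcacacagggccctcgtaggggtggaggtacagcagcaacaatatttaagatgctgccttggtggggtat
The hypoxia response core was searched as ACGTG, the forkhead motif as GTAAACA, the AP-1 motif as TGANTCA, the TEAD motif as GGAATG, the TATA box as TATAAA and the glucocorticoid half-site as TGTTCT, each on both strands. Angpt4 matched the TATA box once, 30 bases before the start and overlapping no other motif, a motif held by 12.4% of the 32851 promoter windows of that length. Angptl7 matched 0 of the 6 motifs, and so did Angptl2 and Angptl1. Among all windows, 16.6% held the hypoxia core, 3.17% the forkhead motif, 6.75% the AP-1 motif, 12.6% the TEAD motif and 16.1% the glucocorticoid half-site. A match describes these letters and marks no tested site. The window of Angptl7 had 54.4% G and C and that of Angpt4 62.4%, against a median of 52.4%. Promoters were matched for 3 of the 5 measured members (Angpt4, Angptl2 and Angptl7), not for Angpt2 and Angptl4.

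Angptl4, the lipoprotein lipase inhibitor that hypoxia and fatty acids induce, did not separate the genotypes. It measured 1822, 1178 and 965 scaled reads in the WT libraries, by replicate number, and 2708, 954 and 2234 in the KO libraries. The second KO library was the lowest of all 6, while the other KO libraries were the highest. Group means were 1322 ± 446 (WT) and 1965 ± 908 (KO; SD, n = 3 each), with a log2 difference of 0.49 (SE 0.43). Leaving out 1 library moved that difference between 0.20 (without KO replicate 1) and 0.95 (without KO replicate 2), and it was 0.13 without both libraries numbered 3.

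Angptl2, the integrin ligand, varied more between cultures than between genotypes. It measured 1726, 8723 and 4353 scaled reads in the WT libraries, by replicate number, and 2033, 3962 and 4929 in the KO libraries, with the first library lowest in both groups. Group means were 4934 ± 3535 (WT) and 3642 ± 1474 (KO; SD, n = 3 each), and the log2 difference was -0.24 (SE 0.62). Its sign turned without WT replicate 2 (0.32), without KO replicate 1 (0.13) and without both libraries numbered 2 (0.21), and it was -0.45 without both numbered 3. KO held 1.18 times the WT value in the first pair, 0.45 times in the second and 1.13 times in the third.

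**Figure D2:**
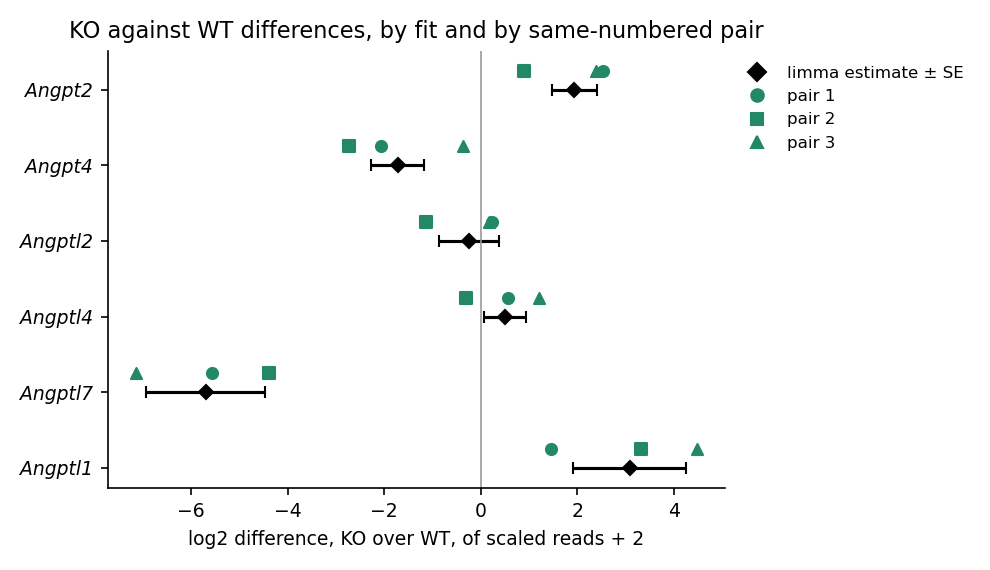
Log2 difference, KO over WT, of scaled reads + 2 for each measured family gene, as the limma estimate with its SE (black) and as the 3 same-numbered pairs (green). All 3 pairs lie above 0 for Angpt2 and Angptl1 and below 0 for Angpt4 and Angptl7, while those of Angptl2 and Angptl4 fall on both sides.

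The log2 ratio of Angptl7 in the authors' deposited table was -5.85, with a false discovery rate (FDR) of 6.33e-05, and that of Angpt2 was 2.06, with 0.00618. For Angpt4 the authors' deposited table gave -1.46, with an FDR of 0.537, and for Angptl4 and Angptl2 it gave 0.57 and -0.44, neither of them called at 0.05. The authors' deposited table thus called 2 of the 5 members, where it called 0.525% of its 12389 genes. The genotypes were separate for 3 of the 5, where 8.43% of the genes tested were separate: 1 member lay higher in KO (3.91% of genes) and 2 lower (4.51%). These shares follow from how the members were picked and support nothing further. In limma 0 of the 5 passed, as for all genes.

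Angptl1, an angiopoietin-like gene outside the chosen members, was measured at low levels. No gene of the per-library table had a maximum below 200.5 estimated reads. Angptl1 reached that level only in KO replicate 2, at 461 estimated reads, so it was measured here only through a KO library. It measured 27.3, 51.2 and 3.96 scaled reads in the WT libraries, by replicate number, and 77.9, 533 and 131 in the KO libraries, with every KO library above every WT library. Its log2 difference was 3.09 (SE 1.17). No p-value is given for it, since entry through a KO library favoured a higher value in KO. With 1 library left out it ran from 2.18 (without WT replicate 3) to 3.76 (without WT replicate 2). Its host Ralgps2 had 944, 1185 and 119 scaled reads in WT, by replicate number, and 1030, 796 and 1026 in KO. Both genes were lowest in WT replicate 3, whereas KO replicate 2, highest in Angptl1, held the least Ralgps2 of the KO libraries. The part of Ralgps2 reads in the Angptl1 values was not tested. Angptl6 and Angptl8 were not analysed here.

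Per kilobase of annotated exon, the order of the 5 members differed between the genotypes. In WT it ran from Angptl2 (785 ± 562 scaled reads per kilobase) over Angpt2 (478 ± 146), Angptl4 (373 ± 126) and Angpt4 (312 ± 62.8) to Angptl7 (303 ± 310; SD, n = 3 each), and every neighbouring pair overlapped. In KO, Angpt2 came first at 1995 ± 1136, above the range of Angptl2 (579 ± 235). Angptl4 (555 ± 256) overlapped Angptl2, and then came gaps to Angpt4 (113 ± 84.3) and to Angptl7 (5.30 ± 6.68; SD, n = 3 each). Among all genes on the same scale, Angpt2 lay between the 56.2nd and 73.4th percentiles in the WT libraries and between the 83.5th and 95.5th in KO. Angptl7 lay between the 15.8th and 76.0th percentiles in WT and at or below the 3.01st in KO.

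**Figure D3:**
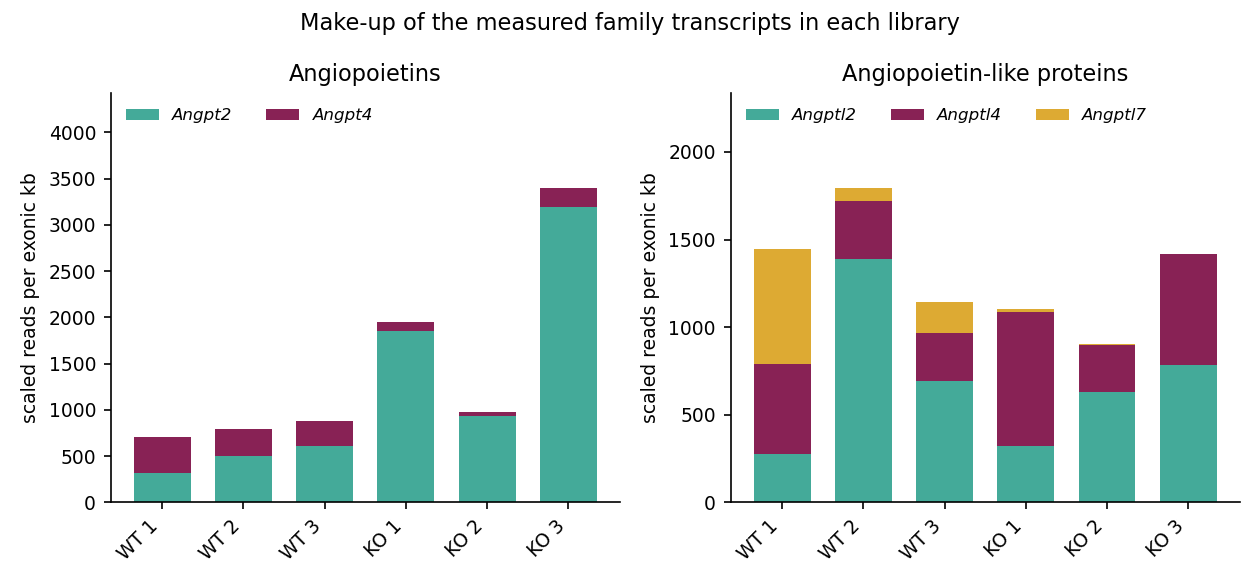
Stacked levels, in scaled reads per exonic kilobase, of the measured angiopoietins (left) and angiopoietin-like members (right) in each library. Angpt2 fills 93.9% to 95.7% of the angiopoietin bar in KO libraries, and Angptl7 fills 4.16% to 45.4% of the other bar in WT libraries but at most 1.17% in KO.

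Among the angiopoietin-like members, Angptl7 contributed 45.4%, 4.16% and 15.6% of the summed level in the WT libraries, by replicate number, and 1.17%, 0.30% and 0.02% in the KO libraries. The ratio of Angptl4 to Angptl2, by contrast, followed the replicate number, at 1.87, 0.24 and 0.39 in WT and 2.36, 0.43 and 0.80 in KO. The first library was highest and the second lowest in both genotypes. In each pair the KO ratio was the higher, by a smaller step than that between replicates 1 and 2.

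Likeness of pattern was measured as Pearson's r of the log2 values over the 6 libraries, against 11123 genes with a mean of at least 100 scaled reads. All points of a gene share the same 6 libraries, and 6 points limit what r can show. Angpt2 was most like Efna3 (r = 0.983), Tacc2 (0.981) and Ctnnbip1 (0.979), and 20 genes had r above 0.95. Size does not enter r: Efna3, Tacc2 and Ctnnbip1 had log2 differences of 0.90, 0.18 and 0.16, against 1.94 for Angpt2. Angptl7 was most like Cndp2 (0.989), Akna (0.985) and Hacd2 (0.985), and Angpt4 most like Jmjd4, Mia3 and Ccdc137 (0.992, 0.992 and 0.990). Klhl2 and Prl2c3 were among the 3 genes most like Angptl2 (0.988 and 0.985), and Angptl4 most like Trp53rka, Ppp1r37 and Qsox1 (0.995, 0.988 and 0.985). Among the members themselves, r was -0.88 between Angpt2 and Angptl7, 0.66 between Angpt4 and Angptl7 and -0.44 between Angpt2 and Angpt4. These 3 genes were chosen with their genotype differences known, so such values partly repeat those differences. Angptl4 had r of 0.53 with Angpt2 and -0.52 with Angptl2, and the remaining pairs lay between -0.26 and 0.09.

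Other family members, receptors, partners and regulators of these ligands were read from 9 lists of 149 genes, of which 121 were tested. In limma 0 of the 121 passed (0.00% of all genes), 7 higher (1.46% of all genes) and 7 lower (2.15%) in KO had an unadjusted p under 0.05, and limma-voom also passed 0, with 11 unadjusted. Groups did not overlap for 15 of the 121, where 8.43% of all genes did not. Angptl1, counted among the 7 higher and among the 15, was measured only through a KO library, which favoured a higher value in KO. The median log2 difference over the 121 was -0.08, beside 0.00 over all genes. The lists were chosen with earlier results of these data known, so these counts and shares support nothing further.

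Of the Tie receptor list, 11 of 15 genes were measured, and the receptors Tek and Tie1 were not analysed here. Ptprb, the vascular endothelial phosphatase that dephosphorylates Tie2, measured 1120, 600 and 735 scaled reads in the WT libraries, by replicate number, and 1334, 4933 and 2055 in the KO libraries. All KO libraries lay above the WT libraries, and the log2 difference of 1.59 (SE 0.50) had an unadjusted p of 0.0152 and did not pass (limma adjusted p = 0.999). Grb14, an adaptor that binds phosphorylated receptor tyrosine kinases including Tie2, had 563 ± 62.2 (WT) and 1159 ± 104 (KO; SD, n = 3 each). Its log2 difference was 1.04 (SE 0.20), with a limma adjusted p of 0.996. Svep1, a matrix protein that binds angiopoietins, had 6512, 20251 and 24961 scaled reads in WT and 9485, 9035 and 9399 in KO, and overlapped. Its log2 difference was -0.68 (SE 0.49), and it ran from -1.27 (without WT replicate 1) to -0.30 (without WT replicate 3) with 1 library left out. Without both libraries numbered 2, Ptprb was 0.87. Akt1, a kinase downstream of the receptor, was at 0.31 (SE 0.20). In the list 8 of 11 log2 differences lay above 0, with a median of 0.12.

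Integrins and syndecans, which can bind angiopoietins or angiopoietin-like proteins, gave 0 of 12 tested genes passing in limma, with a median log2 difference of -0.11. Itga1, a collagen-binding integrin chain, measured 3578, 1355 and 3095 scaled reads in the WT libraries, by replicate number, and 1318, 1268 and 923 in the KO libraries. Its log2 difference was -1.09 (SE 0.38), at an unadjusted p of 0.0245 and a limma adjusted p of 0.999. The chains that form the fibronectin and vitronectin receptors were nearer to 0, with Itgb1 at -0.12 (SE 0.33), Itga5 at -0.10 (SE 0.29) and Itgav at -0.19 (SE 0.24). The first 2 of these turned sign when 1 library was left out. Sdc3, Sdc1 and Itgb2 had -0.43 (SE 0.26), 0.34 (SE 0.28) and -0.62 (SE 0.74), the last at -0.12 without WT replicate 1 and -1.45 without WT replicate 3.

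The lipase axis holds the enzymes that ANGPTL4 restrains, the proteases that cleave such proteins and lipoprotein receptors, and 0 of its 13 tested genes passed in limma (median log2 difference 0.08). Lpl, the lipase itself, measured 5158, 9658 and 21.4 scaled reads in the WT libraries, by replicate number, and 15843, 3604 and 3417 in the KO libraries. Its log2 difference of 2.46 (SE 2.25) rested on WT replicate 3, and without that library it was -0.28. Vldlr, a lipoprotein receptor, had 1.35 (SE 0.56) and the metalloprotease Tll1 -1.80 (SE 0.70), at unadjusted p of 0.0470 and 0.0409, each with a limma adjusted p of 0.999. Tll1 was -0.96 without KO replicate 3 and -0.73 without both libraries numbered 3, and Vldlr was 0.84 without WT replicate 3. Bmp1, another such protease, was at 0.36 (SE 0.24), and the proprotein convertase Pcsk7 at -0.32 (SE 0.20).

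**Figure D4:**
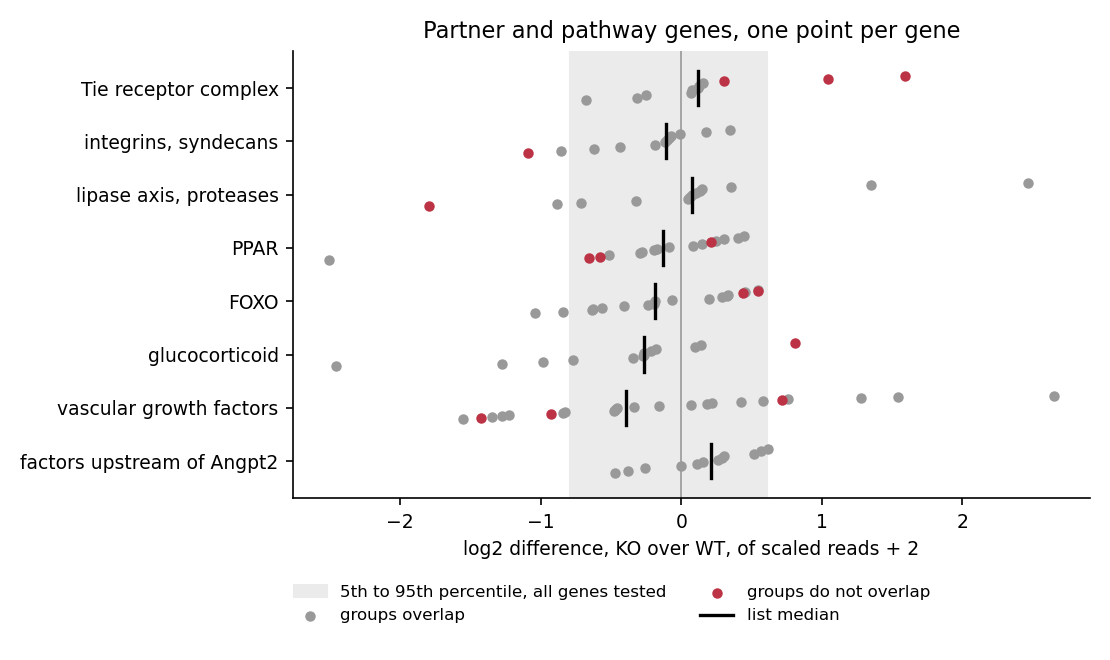
Log2 difference, KO over WT, of each tested partner or pathway gene by list, with genes whose groups do not overlap in red, list medians as black ticks and the 5th to 95th percentile of all genes tested (-0.79 to 0.61) shaded. The medians of the 8 lists plotted run from -0.39 for vascular growth factors to 0.21 for factors upstream of Angpt2, all inside the shaded band, and Angptl1, the single tested gene of the list of other family members, is not plotted here.

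Other vascular growth factors and guidance cues gave 24 tested genes, with a median log2 difference of -0.39 and 0 passing in limma. Sema3f, a repulsive cue for endothelial cells, measured 4942, 2210 and 3725 scaled reads in the WT libraries, by replicate number, and 1214, 1435 and 1213 in the KO libraries. Its log2 difference was -1.42 (SE 0.31), at an unadjusted p of 0.00228 and a limma adjusted p of 0.999. Vegfd, a ligand of lymphatic growth, had 15225 ± 777 (WT) and 8282 ± 2560 (KO; SD, n = 3 each), with -0.92 (SE 0.27). Thbs1, an inhibitor of angiogenesis, had 107766 ± 8092 and 178489 ± 28288 (SD, n = 3 each), with 0.72 (SE 0.28). For both, the groups did not overlap. Nrp1, a coreceptor for VEGF and semaphorins, had 0.76 (SE 0.29), and its groups overlapped.

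Lists of factors that act on transcription of these genes also gave 0 passing in limma. Genes placed upstream of Angpt2 had a median log2 difference of 0.21 over 12 tested, with 0 at an unadjusted p under 0.05, and Hif1a at -0.47 (SE 0.31), Foxc2 at 0.52 (SE 0.35), Foxc1 at -0.26 (SE 0.21) and Elf1 at 0.29 (SE 0.25). FOXO factors and targets had a median of -0.19 over 19, with Gadd45a at -1.04 (SE 0.42), Trib1 at -0.84 (SE 0.41), Klf15 at -0.63 (SE 0.32) and Sesn1 at 0.55 (SE 0.28). Without KO replicate 3, Trib1 was -0.52 and Sesn1 0.30, and without WT replicate 2 Gadd45a was -0.69. PPAR receptors and targets, a group that includes fatty acid-induced genes, had a median of -0.13 over 16. Within it, the lipid droplet coat gene Plin2 had -0.58 (SE 0.24), and the fatty acid-binding genes Fabp4 and Fabp5 had -2.50 (SE 1.40) and 0.44 (SE 0.26). The Fabp4 difference leaned on WT replicate 1, at -1.04 without that library, and was wider, at -3.82, without WT replicate 3. Glucocorticoid targets had a median of -0.27 over 13, with Tsc22d3 at 0.81 (SE 0.31), Hsd11b1 at -2.45 (SE 1.24), Mt2 at -1.28 (SE 0.96) and Dusp1 at -0.35 (SE 0.29). With 1 library left out, Hsd11b1 ran from -3.64 (without WT replicate 3) to -1.40 (without WT replicate 1), Mt2 from -2.11 (without KO replicate 1) to -0.20 (without KO replicate 3), and Tsc22d3 was 0.49 without KO replicate 1.

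Markers of other cell types were read beside the members, since several of these ligands are made by more than one cell type. Tendon and cartilage markers, 4 measured of 10, summed to 8449 to 14618 scaled reads in WT and 2716 to 3032 in KO, a gap that came mostly from the proteoglycan gene Fmod, whereas Sox9 had a higher mean in KO (1168) than in WT (839). Leukocyte markers, 4 of 8, summed to 1995 to 2616 in WT and 834 to 1676 in KO, led by Cd14 and Csf1r. Both sums were lower in every KO library, as were Angptl7 and Angpt4, and their part in those values was not tested. By gene, only Fmod, Mkx and Lyz2 were lower in every KO library. The genotypes overlapped for Scx and Sox9 and for the leukocyte genes Cd14, Csf1r and Cd68. Endothelial markers, 3 of 10 (Kdr, Flt1 and Egfl7), summed to 798 to 2257 in WT and 339 to 2009 in KO, while Pecam1, Cdh5 and Vwf were not analysed here. By replicate number these sums were 798, 912 and 2257 in WT and 339, 544 and 2009 in KO, so the libraries numbered 3 were highest in both genotypes, as they were for Angpt2. Flt1 had this order (2162 in WT and 1703 in KO replicate 3), whereas Kdr was lowest in the libraries numbered 3 (42.7 and 21.3). Egfl7 was highest in replicate 3 in KO alone. The part of endothelial cells in the Angpt2 values was not tested. Sums of pericyte markers (4 of 7, led by Pdgfrb and Notch3; 25038 to 32315 in WT and 18744 to 32550 in KO), adventitial fibroblast markers (9 of 10, led by Dcn and Col14a1; 20463 to 75846 and 26602 to 64238) and mesothelial markers (4 of 6, led by Upk3b and Msln; 5564 to 11321 and 1104 to 5986) overlapped between genotypes. No measured marker was at 0 in all libraries, and the 6 adipocyte markers listed were not analysed here.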

How the data were processed

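Poly(A) RNA of 6 cultures (3 WT, 3 KO) gave paired-end reads from a stranded kit, per the labels' protocols. Per the submitters' processing notes, the authors name STAR, Partek, DESeq2, GRCm39 and mm39, stating neither role nor version. In contrast, 12341 of 12385 gene starts in the authors' comparison table are those of GRCm38 (GENCODE M21), so coordinates are given in that build. The deposited per-library values are a scaled signal, although 1 of the tables is named as raw counts: 1 read was worth 0.712 to 1.19, found from low values, and 82.1% to 92.4% of values up to 50 reads lay within 0.05 of a whole number. The authors' deposited table also gives group means as signal, p-values with a step-up FDR, and a log2 ratio of KO over WT. Whether strand was used in counting is not given in the sources used here.

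limma 3.58.1 (R 4.3.3, statmod 1.5.0) was fitted to log2(value + 2) with genotype alone, a variance trend and robust priors, on 12363 genes that reached 10 in 3 libraries or more. Its two-sided p-values were adjusted by Benjamini-Hochberg, with 0.05 as the threshold. The model was checked on simulated data with independent noise of 1 size for all genes, which does not show its power in these libraries. Levels per kilobase use the union of annotated exons. The members and lists were chosen with earlier results of these data known. Genes named are the members, other family genes, chosen receptors, up to 4 genes per list with the smallest p, the 2 highest markers per list, and the 3 genes most like each member. Some genes that this rule names are not reported here. Ralgps2, Mcph1, Mtor, Ralgps1 and Myh11 were added after their values were seen.

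Across genes, the deviations of same-numbered libraries from the group mean correlated at 0.43, 0.15 and 0.39, against -0.40 to 0.02 for libraries of different numbers. The numbers were therefore described as pairs, on these values alone, since the labels do not explain them. The main fit, which gave the SEs and p-values printed for named genes, did not use the pairs. The submitters describe the replicates as biological, but not which animals they came from. The alternatives were other library scalings, filters, pseudocounts, the other per-library table, limma-voom, other priors, a fit with the replicate block, weights for library quality and leaving out each library. Leaving out both libraries of 1 number was chosen after seeing the data.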

Additional observations from a re-analysis of the deposited data

How the results depend on the processing

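With library quality weights limma passed 30 genes, 6 of them higher in KO, and 1 partner gene, Grb14 (adjusted p = 0.0450), against 0 of each without weights. With the same weights the log2 differences of Lpl (-0.39) and Foxc2 (-0.039) reversed, and the cause was not tested. With 1 library left out the genes passing ran from 0 to 1, reached without KO replicate 1, and 0 partner genes passed in each case. The replicate block gave 0 genes passing in limma and changed no call, but 917 genes had an unadjusted p under 0.05, against 447 without it. Single genes moved either way. With the block the unadjusted limma p of Vldlr went from 0.0470 to 0.000638 (adjusted 0.259), and that of Tll1 from 0.0409 to 0.0940.

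Angpt2, Angpt4, Angptl4 and Angptl7 kept their direction in each alternative that gave them a value, with log2 differences with 1 library left out of 1.51 to 2.40, -2.30 to -1.16, 0.20 to 0.95 and -6.60 to -4.87. Angptl2 ran from -0.85 to 0.32, and with weights it was -1.21. Angptl7 depended on the pseudocount, at -6.00 with 1 and -4.62 with 10, and on the model, at -4.22 with library quality weights and -6.15 (SE 4.61) with limma-voom, and its low reads in KO limit its size. It was not tested without the libraries numbered 1, where too few libraries reached the filter. With 1 library left out, Lpl ran from -0.28 to 4.06, Itgb1 from -0.35 to 0.048 and Itga5 from -0.34 to 0.029. Without both libraries of 1 number, Itgb1 was 0.20 (number 3) and Itga5 0.13 and 0.10 (numbers 1 and 2), reversed from the full set.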
